A study of Mus musculus with 6 samples.

Results

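Amino acid transporters were examined as a group of genes in mouse bone marrow cells positive for c-Kit, the fraction that carries the stem cell factor receptor Kit and is rich in blood stem and progenitor cells. The genes were chosen by symbol, as members of the solute carrier families Slc1, Slc3, Slc6, Slc7, Slc36, Slc38 and Slc43 whose symbols end in a number. Of 61 such symbols in the table of gene names, 39 were among the 20097 genes listed in the deposited files. A gene is listed from a total of 10 reads over the 6 libraries, and the listed transporter genes with the fewest, Slc3a1 and Slc6a4, had 12 reads each. Beside the symbol, members were thus selected on this total. The families themselves were picked with earlier results of the same contrast known, so the values and adjusted p-values below describe the genes and are not independent evidence about the group.

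The study compared 3 libraries labelled WT with 3 labelled Runx1 KO, a knockout of the blood transcription factor gene Runx1. All 6 came from the same cell fraction, and total RNA was made into stranded poly-A libraries that were sequenced as a pool. The way in which Runx1 was disrupted, the age and sex of the mice, and whether each library came from a separate mouse are not given in the sources used here, so that p-values measure the spread between these libraries, which may be technical. The libraries are named by group and number, as WT library 1 and KO library 1, the latter standing for the label Runx1 KO 1.

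Solute carriers bring amino acids across the plasma membrane and the lysosomal membrane. In the heteromeric transporters a light chain of the Slc7 family carries the substrate, and a heavy chain of the Slc3 family brings it to the cell surface. Slc38 and Slc1 members take up glutamine and other neutral amino acids with sodium, and Slc36 members such as Slc36a1 move small amino acids with protons. Slc6 members take up amino acids, betaine, taurine, creatine and monoamines. Blood progenitors depend on such uptake for protein synthesis, and the lysosomal carrier Slc38a9 reports amino acids to the kinase complex mTORC1.

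The deposited values are reads per gene scaled by a library-specific factor (normalised reads in what follows), and the libraries held between 23297526 and 26793380 reads. Runx1 itself was higher in the libraries labelled Runx1 KO, at 6648, 6720.4 and 5829.9 normalised reads against 3031, 2799 and 3497 in WT libraries 1 to 3 (log2 change 1.04, SE 0.10, limma adjusted p 0.00163), so the transcript level goes against a loss of Runx1 RNA and directions below rest on the labels. Kit, which defines the cell fraction, was well detected in every library, at 7979, 8455 and 8471 normalised reads in the WT libraries and 11507, 13684 and 12756 in the KO libraries. Markers of several other blood cells moved with the label. The counts of rises and falls that follow are calls at a limma adjusted p under 0.05. Of all tested genes, 10.6% were called higher and 11.3% lower. Of 10 neutrophil granule markers 8 fell, with a summed level of 310670.0 to 379754 normalised reads in the WT libraries and 157236 to 214756 in the KO libraries. Of 8 B-lymphoid markers 6 fell (6166 to 27674 against 1022 to 2840.0), of 8 mast cell and basophil markers 4 fell and 1 rose (14745 to 18688 against 13884 to 16756), of 8 monocyte markers 4 fell (40728 to 48145 against 24675 to 36635) and of 7 eosinophil markers 3 fell and 1 rose (14584 to 21890.4 against 7930.4 to 12378). Of 10 erythroid markers 4 fell, with overlapping sums (19908 to 28330.1 against 16752 to 27036). Of 8 T-lymphoid and NK markers 1 fell (6575 to 7554 against 4525 to 4837). That is 12.5%, near the share of all tested genes called lower, although the sums did not overlap. Of 10 stem and multipotent markers 7 rose (19277 to 22839 against 29306 to 34039), and of 6 tested megakaryocyte markers 3 rose (3517 to 4398 against 4431 to 6776). Within the mast cell and basophil list markers moved in both directions, and some of them fell far. Prss34, a basophil protease, had 4096, 2069 and 2532 normalised reads in WT libraries 1 to 3 and 5.23, 3.96 and 1.99 in KO libraries 1 to 3. Fcer1a, a chain of the IgE receptor, had 364, 179.6 and 213 and then 3.14, 0.991 and 4.97. Mcpt8, another basophil protease, had 1846, 1452 and 1687 and then 138, 139 and 120.3. These were picked out after their values were seen. The other markers of that list, summed, were higher in every KO library than in any WT library. Each listed marker had reads in at least 1 KO library. The part of these shifts in the transporter results was not tested, and in bulk RNA fewer cells of a type and less RNA per cell cannot be told apart.

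The strong changes among the amino acid transporter genes were falls of Slc36a2, Slc6a12 and Slc7a11, and the genes most abundant per kilobase gave no call. Of the 39 listed genes 31 passed the filter on low values and were tested with limma over all 15410 tested genes, and 7 of the 31 passed an adjusted p of 0.05, against 21.9% of all tested genes. Upward calls numbered 3, namely Slc7a2, Slc38a9 and Slc43a1 (10.6% of all tested genes were called higher), and downward calls numbered 4, namely Slc36a2, Slc6a12, Slc7a11 and Slc6a6 (11.3% called lower). Of the 31 tested genes 3, namely Slc36a2, Slc6a12 and Slc7a11, were called with a log2 change of at least 1, against 7.79% of all tested genes. The groups did not overlap in 14 of the 31 genes, 7 higher and 7 lower in the KO libraries, against 43.3% of all tested genes (21.4% higher and 21.9% lower). The median log2 change was -0.05 over the 31 genes and -0.0042 over all tested genes. Leaving out KO library 2, KO library 3, WT library 2 or WT library 1 gave 2, 3, 3 and 4 calls. Slc36a2 and Slc6a12 passed whichever library was left out. Exons of Slc6a9, Slc7a4, Slc43a2, Slc7a7, Slc7a2, Slc38a10, Slc6a6 and Slc38a9 overlap those of a gene on the opposite strand over 27.8%, 13.3%, 9.18%, 7.0%, 6.95%, 5.72%, 1.38% and 1.09% of their length. Slc6a9 overlaps 3 such genes, and its share is that of the largest overlap alone, so the full share may be larger. Whether counting used the strand is not given in the sources used here.

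**Figure D1:**
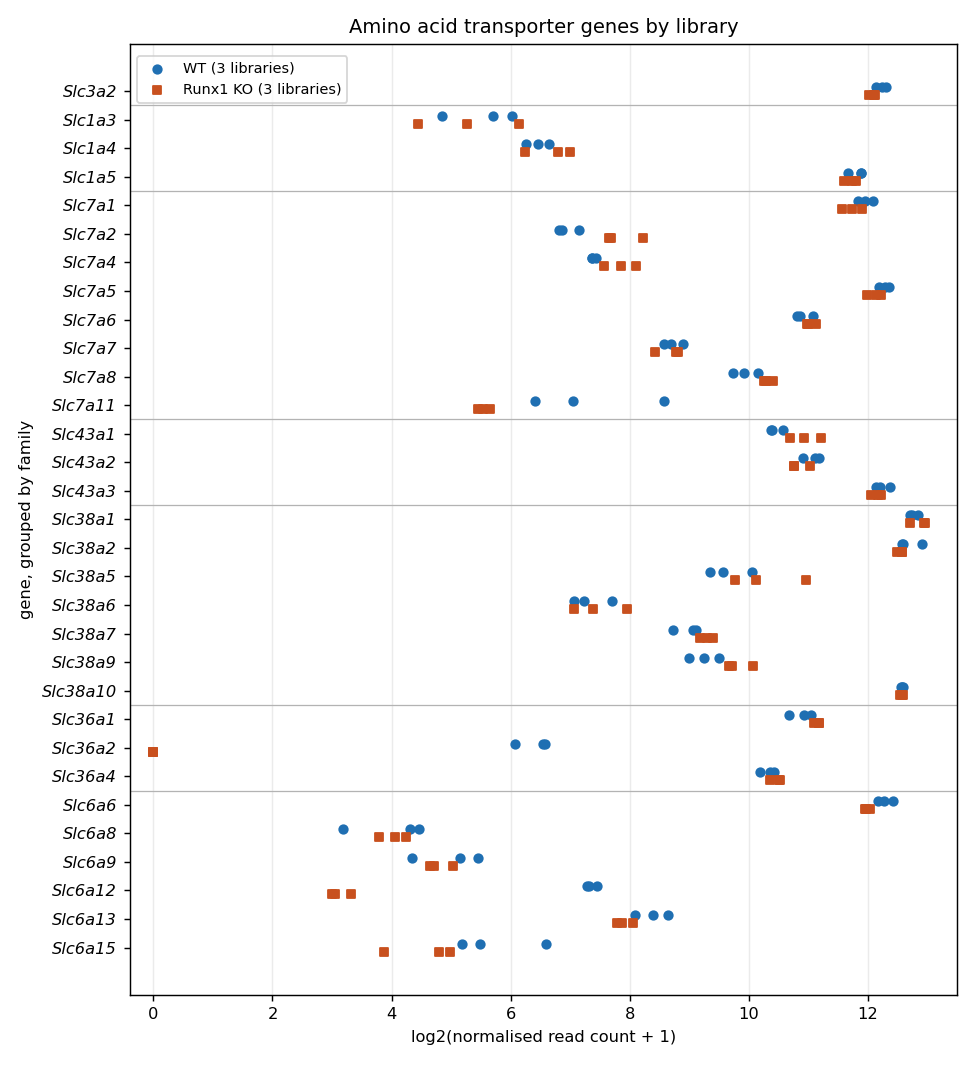
Normalised read counts of the 31 tested transporter genes, as log2(value + 1), in WT libraries (circles) and Runx1 KO libraries (squares), with families separated by lines. Slc36a2 lies at 0 in the 3 Runx1 KO libraries and Slc6a12 falls from near 162 to near 7.73 normalised reads, whereas Slc3a2, Slc7a5 and Slc38a10 lie close together in both groups.

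The heavy chain Slc3a2 and the light chain Slc7a5, which together carry leucine and other large neutral amino acids into dividing cells, gave no call. Slc3a2 had 4478, 4808 and 5054 normalised reads in WT libraries 1 to 3 and 4439, 4409 and 4130.3 in KO libraries 1 to 3 (log2 change -0.14, SE 0.07, limma adjusted p 0.156). The KO libraries all lay below the WT libraries, and the change did not pass the test. Slc7a5, the light chain of the leucine transporter LAT1, had 4624, 5249 and 5013 in the WT libraries and 4039, 4761 and 4514 in the KO libraries, with overlapping groups (log2 change -0.16, limma adjusted p 0.188). Per kilobase of exon these were the most abundant transporter genes of both groups, at 1355 ± 81.8 and 1338 ± 85.1 normalised reads per kb in the WT libraries, levels that overlap each other. The ratio of Slc7a5 to Slc3a2 per kb was 0.989 ± 0.0478 in the WT libraries and 0.978 ± 0.0972 in the KO libraries (SD, n = 3).

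Of the other light chains that pair with Slc3a2, Slc7a11 passed the test and Slc7a8, Slc7a6 and Slc7a7 did not. Slc7a8, the light chain of LAT2, a neutral amino acid exchanger, had 854, 967 and 1136 normalised reads in the WT libraries and 1212, 1251 and 1353 in the KO libraries. The groups did not overlap, and the change stood just outside the threshold (log2 change 0.38, SE 0.11, limma adjusted p 0.0523). Relative to Slc3a2 per kb it was 0.134, 0.142 and 0.158 in the WT libraries and 0.193, 0.200 and 0.231 in the KO libraries, again without overlap. With DESeq2 on recovered reads the adjusted p of Slc7a8 was 0.0245, and with scaling by library totals 0.0395 in limma, both past the threshold. In edgeR without a replicate block it was 0.0593, not past it. With a library left out Slc7a8 did not pass in 5 of 6 limma fits, with adjusted p-values of up to 0.157. The exception was the fit without WT library 3. Slc7a6, which exchanges cationic against neutral amino acids, had 1787, 1847 and 2149.6 in the WT and 2034, 2244 and 2006 in the KO libraries (log2 change 0.12, limma adjusted p 0.353), with overlapping groups. Relative to Slc3a2 per kb, Slc7a6 was 0.308, 0.297 and 0.328 in the WT libraries and 0.354, 0.393 and 0.375 in the KO libraries, without overlap. Slc3a2, the divisor of the Slc7a8 and Slc7a6 ratios, was itself lower in every KO library, which adds to the separation of these ratios. The levels of 43.3% of all tested genes did not overlap either, and no such share was computed for ratios. Slc7a7, a related exchanger that is mutated in lysinuric protein intolerance, had 475, 381 and 411 in the WT and 447, 343 and 439 in the KO libraries (log2 change -0.05, limma adjusted p 0.829), and the sign of its small change turned under scaling by library totals and without WT library 1 or KO library 2.

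Slc7a11, the light chain of the cystine-glutamate exchanger that supplies cysteine for glutathione, fell. It (ENSMUSG00000027737; chromosome 3, 49892526 to 50443614, minus strand) had 379.9, 131 and 83.5 normalised reads in WT libraries 1 to 3 and 49.2, 45.6 and 42.8 in KO libraries 1 to 3 (log2 change -1.79, SE 0.51, limma adjusted p 0.0449). The KO libraries lay close together below every WT library, while the WT libraries spread widely with library 1 far above the others. The WT mean was 4.32 times the KO mean with all libraries and 2.34 times without WT library 1, where the log2 change was -1.18 with a limma adjusted p of 0.0314. The call was lost without WT library 2 or without any one of the KO libraries, with adjusted p-values of up to 0.124.

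WT library 1 was also the highest WT library for the stress-response genes Atf3 (3365 normalised reads against 1639.7 and 1719) and Ppp1r15a (7683 against 4130.1 and 3474) and for the arginase gene Arg2 (222 against 21.2 and 21.1), which were picked out after their values were seen. KO library 1 was likewise the highest KO library for these 3 genes. Atf3 had 1627, 559 and 494 normalised reads in KO libraries 1 to 3. Ppp1r15a had 6651, 4944 and 4097 there, and Arg2 had 17.8, 8.92 and 7.96. Genes described below did not all share the order of the WT libraries. Atf4 was highest in WT library 1 (8236, 7555 and 7412 in WT libraries 1 to 3). Asns (1944, 2734 and 1966), Pycr1 (281, 261 and 291), Chac1 (50.5, 64.6 and 37.4) and Nupr1 (192, 161 and 277) were not. The part of Atf3, Ppp1r15a and Arg2 in the level of Slc7a11 in WT library 1 was not tested.

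Slc7a11 is a known target of Atf4, the transcription factor of the integrated stress response, which binds the amino acid response element. The sequence before the start of Slc7a11 is shown because it holds that element in both directions. The part of Atf4 in the fall of Slc7a11 was not tested. The letters TGATGNAA were searched on both strands in the 250 bases before each start in RefSeq's promoter table (GRCm38.p6); the motifs were chosen after values were seen. They occurred in 3.45% of all 32851 windows, and more than once in 0.0396%. Of the 39 transporter genes 28 had a window, and 3 of these held the letters, namely Slc7a11, Slc7a7 and Slc6a21. Counted by window, 4 of their 43 windows (9.30%) held the letters, and windows of the same gene are not independent. Counts by gene, here and for the lists, are not like a share of windows, since a gene can have more than 1 window. Of the 25 called genes in the lists of related amino acid genes described further on, 24 had a window and 5 held the letters; list genes without a call were not searched. Each sequence runs 5′ to 3′ on the strand of its gene, with the matching letters in capitals. For Slc7a11 the 120 bases up to the start are given (chr3:50443614-50443733, minus strand), with the matches beginning 66 and 47 bases before the start. For the others 30 bases around the first match are given, for Asns at chr6:7693214-7693243 on the minus strand, Pycr1 at chr11:120643833-120643862 on the minus strand, Chac1 at chr2:119351038-119351067 on the plus strand, Nupr1 at chr7:126625562-126625591 on the minus strand and Lamtor4 at chr5:138255449-138255478 on the plus strand. A match is a description of letters and no evidence of binding.
Slc7a11: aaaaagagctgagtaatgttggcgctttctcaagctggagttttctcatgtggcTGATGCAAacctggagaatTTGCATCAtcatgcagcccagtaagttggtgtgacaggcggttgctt
Asns: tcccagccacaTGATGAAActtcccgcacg
Pycr1: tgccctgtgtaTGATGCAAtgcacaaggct
Chac1: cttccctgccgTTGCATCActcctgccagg
Nupr1: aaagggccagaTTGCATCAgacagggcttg
Lamtor4: taagactcctcTTACATCAccggactgttc

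Atf4 had 8236, 7555 and 7412 normalised reads in the WT libraries and 5933, 5913 and 5471 in the KO libraries (log2 change -0.42, SE 0.06, limma adjusted p 0.00665), with every KO library below every WT library. Values follow for the 4 genes of the synthesis and stress lists whose windows are printed. They were printed because they had been called and held the letters, so their falls are part of that choice and support no pattern. Asns, which makes asparagine, had 1944, 2734 and 1966 in the WT and 707, 969 and 1264 in the KO libraries (log2 change -1.20, limma adjusted p 0.0124). Chac1, which degrades glutathione, had 50.5, 64.6 and 37.4 in the WT and 16.7, 14.9 and 12.9 in the KO libraries (log2 change -1.68, limma adjusted p 0.00766). Pycr1, an enzyme of proline synthesis, had 281, 261 and 291 in the WT and 187, 170.5 and 176 in the KO libraries (log2 change -0.64, limma adjusted p 0.00929). Nupr1, a small stress-induced nuclear protein, had 192, 161 and 277 in the WT and 109, 89.2 and 85.5 in the KO libraries (log2 change -1.12, limma adjusted p 0.0152). In none of these genes did the groups overlap. Atf4, Asns and Chac1 passed whichever library was left out, whereas Pycr1 lost its call without KO library 2 (adjusted p 0.05) and Nupr1 without KO library 2 or 3 (up to 0.0629). Other genes known to respond to Atf4 gave no such call. Among them, Trib3 had a log2 change of 0.37 (limma adjusted p 0.431), Ddit3 of -0.34 (0.103) and Psat1, of serine synthesis, of -0.17 (0.113).

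**Figure D2:**
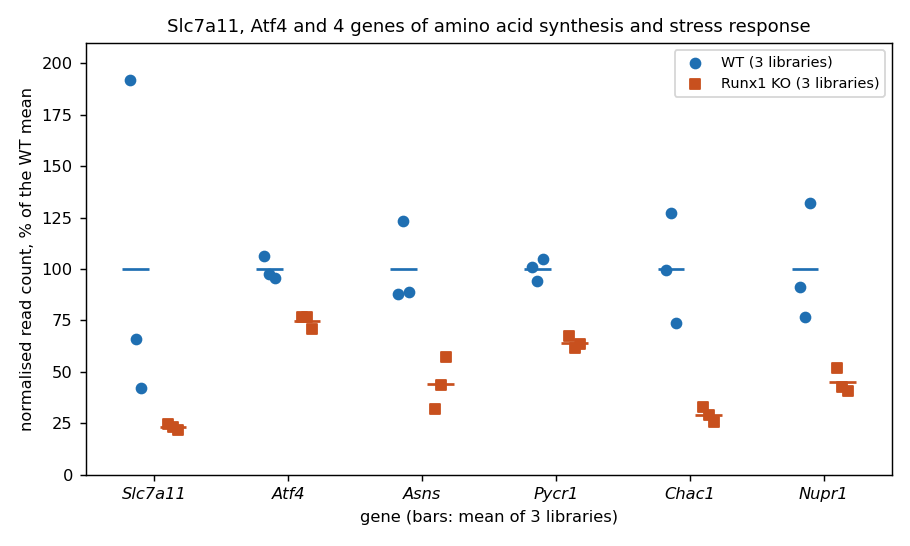
Normalised read counts of Slc7a11, Atf4, Asns, Pycr1, Chac1 and Nupr1 as a percentage of each gene's WT mean, in WT libraries (circles) and Runx1 KO libraries (squares); bars are means of 3 libraries. In each gene the Runx1 KO libraries lie below the WT libraries, and Slc7a11 shows 1 WT library far above the other 2. Asns, Pycr1, Chac1 and Nupr1 were plotted because they had been called and held the letters TGATGNAA, so their falls are part of that choice. Trib3, Ddit3 and Psat1, which gave no call, are not plotted.

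Among the transporters of cationic amino acids, which supply arginine and lysine, Slc7a2 was the called member. Slc7a1, the general arginine transporter CAT1 and far more abundant per kb (345 against 13.4 normalised reads per kb in the WT libraries), had 3657, 4341 and 3931 normalised reads in the WT libraries and 3024, 3817 and 3409 in the KO libraries, with overlapping groups (log2 change -0.22, limma adjusted p 0.16). Slc7a2, which takes up arginine in macrophages and other cells, rose (ENSMUSG00000031596; chromosome 8, 40862396 to 40922308, plus strand). It had 111, 140.3 and 115 in the WT libraries and 199, 298 and 205 in the KO libraries, about 1.92 times the WT mean (log2 change 0.92, SE 0.20, limma adjusted p 0.0189). All KO libraries were above all WT libraries, with KO library 2 the highest. The call was lost without WT library 1, WT library 3 or KO library 2, at adjusted p-values of up to 0.0604. Slc7a4, a related gene of uncertain transport function, had 164, 164 and 171 in the WT and 189, 231 and 274 in the KO libraries, a difference without overlap that did not pass the test (log2 change 0.46, limma adjusted p 0.0778). The summed level of monocyte and macrophage markers was lower in the KO libraries, as given above, and its part in the rise of Slc7a2 was not tested.

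The Slc1 family, glutamate and neutral amino acid transporters, gave no call among its 3 tested members. Slc1a5, the glutamine exchanger ASCT2, was the most abundant member per kb and had 3766, 3248 and 3780.3 normalised reads in the WT libraries and 3551, 3413 and 3111 in the KO libraries (log2 change -0.10, limma adjusted p 0.43). Slc1a4, its close relative that carries serine and alanine, had 75.2, 86.8 and 98.8 in the WT and 74.3, 110.0 and 126 in the KO libraries (log2 change 0.22, limma adjusted p 0.521). Slc1a3, a glutamate transporter best known from glia, had 27.7, 63.6 and 50.8 in the WT and 37.7, 20.8 and 69.6 in the KO libraries (log2 change -0.23, limma adjusted p 0.761). In all 3 genes the groups overlapped.

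In the Slc43 family Slc43a1 was the called member, and it rose. Slc43a1 (ENSMUSG00000027075; chromosome 2, 84838850 to 84863594, plus strand) encodes LAT3, a facilitative carrier of leucine and other branched-chain amino acids. It had 1328, 1525 and 1341 normalised reads in WT libraries 1 to 3 and 1644, 1938 and 2373 in KO libraries 1 to 3 (log2 change 0.49, SE 0.14, limma adjusted p 0.0415), without overlap and with KO library 3 the highest. Slc43a2, the related carrier LAT4, had 2316, 1923 and 2214 in the WT and 2088, 1728 and 1735 in the KO libraries (log2 change -0.22, limma adjusted p 0.172). Per kb the ratio of Slc43a1 to Slc43a2 was 1.15 ± 0.208 in the WT libraries and 1.92 ± 0.511 in the KO libraries (SD, n = 3), with an overlap between WT library 2 and KO library 1. Slc43a3, which carries purine nucleobases and lies 73.0 kb from Slc43a1 on the same strand, had 4480.4, 5312 and 4719 in the WT and 4250.1, 4603 and 4779 in the KO libraries (log2 change -0.09, limma adjusted p 0.464). The rise of Slc43a1 lost its call in 5 of 6 leave-one-out fits, the exception being the fit without KO library 1, with adjusted p-values of up to 0.116.

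Slc38a5, a glutamine, asparagine and histidine transporter known from developing red cells, spread more widely within groups than Slc43a1, with the same libraries highest. It had 754, 1058 and 652 normalised reads in the WT libraries and 871, 1104 and 1986 in the KO libraries, with overlapping groups and no call (log2 change 0.62, SE 0.31, limma adjusted p 0.191). WT library 2 and KO library 3 were the highest of their groups for Slc38a5 and for Slc43a1. The same libraries were the highest of their groups for the erythroid markers Epor (548, 788 and 559 in the WT libraries and 726, 931 and 1458 in the KO libraries) and Klf1 (1107, 1512 and 1226 in the WT and 1516, 1990.0 and 3159.6 in the KO libraries), and for the summed erythroid list. Late red cell markers did not share that order in the KO libraries: Hba-a1, an alpha globin gene, had 2409, 4835 and 2954 in the WT and 1065, 559 and 626 in the KO libraries. These genes were picked after their values were seen, and the part of the erythroid share of cells in Slc43a1 and Slc38a5 was not tested.

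The remaining Slc38 members carry glutamine and other neutral amino acids, at the surface or in the lysosome. Slc38a9 (ENSMUSG00000047789; chromosome 13, 112660751 to 112738749, plus strand), the lysosomal arginine sensor of mTORC1, rose. It had 718, 603 and 507 normalised reads in the WT libraries and 842, 812 and 1078 in the KO libraries, about 1.49 times the WT mean (log2 change 0.58, SE 0.16, limma adjusted p 0.0411). The groups did not overlap, KO library 3 being the highest and WT library 3 the lowest. The call was kept without WT library 1 and lost when any other library was left out, at adjusted p-values of up to 0.12. Slc38a1 and Slc38a2, the main sodium-coupled glutamine transporters, lie 44.5 kb apart on chromosome 15. Slc38a1 had 6847, 6689 and 7303 in the WT and 6696, 7902 and 7815 in the KO libraries (log2 change 0.10, limma adjusted p 0.388), and Slc38a2 had 7689, 6094 and 6171 in the WT and 5762, 6106 and 6065 in the KO libraries (log2 change -0.15, limma adjusted p 0.309). Slc38a10, which has a long cytoplasmic tail, had the smallest SE of the 31 tested transporter genes, at 6036, 6163 and 6041 in the WT and 6152, 6054 and 5911 in the KO libraries (log2 change -0.01, SE 0.05, limma adjusted p 0.902). Slc38a7, a lysosomal glutamine exporter, had 534, 423 and 553 in the WT and 624, 579 and 670.3 in the KO libraries, without overlap but not past the test (log2 change 0.32, limma adjusted p 0.108). Slc38a6 had 206, 149 and 132 in the WT and 247, 166 and 132 in the KO libraries, with wide spread in both groups (log2 change 0.14, limma adjusted p 0.742).

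In the Slc36 family Slc36a2 fell to 0 reads. Slc36a2 (ENSMUSG00000020264; chromosome 11, 55158470 to 55185077, minus strand), which carries proline and glycine, had 92.0, 93.8 and 66.2 normalised reads in WT libraries 1 to 3 and 0 reads in each of KO libraries 1 to 3 (limma adjusted p 1.9e-04). Against a floor of 3 reads in each KO library, a mean of 3.03 normalised reads, it was at least 27.7-fold lower, and this floor covers counting error only. The fitted log2 change is set by the pseudocount and is no estimate of size: it was -6.39 with 1, -4.14 with 5, -7.38 with 0.5 and -9.39 in edgeR. It lies 19.3 kb from Slc36a1, on the opposite strand, and 6.8 kb from Slc36a3, on the same strand. Slc36a1, the lysosomal proton-coupled transporter PAT1, had 1636, 1945 and 2106 in the WT libraries and 2299, 2309 and 2185 in the KO libraries, without overlap but not past the test (log2 change 0.26, SE 0.10, limma adjusted p 0.0933). Slc36a3 was not tested, with at most 10 reads in a library. Slc36a4, a high-affinity carrier of proline and tryptophan on chromosome 9, had 1361, 1314 and 1159 in the WT and 1302, 1461 and 1450.0 in the KO libraries (log2 change 0.14, limma adjusted p 0.287). The 4 listed Slc36 members together summed to 3099, 3362 and 3336 normalised reads in the WT libraries and to 3603, 3776 and 3639 in the KO libraries.

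In the Slc6 family Slc6a12 fell to a few reads per library, and its neighbour Slc6a13 gave no call. Slc6a12 (ENSMUSG00000030109; chromosome 6, 121343076 to 121365775, plus strand), the betaine and GABA transporter BGT1, an organic osmolyte carrier, had 154, 175 and 158 normalised reads in WT libraries 1 to 3 and 7.32, 8.92 and 6.96 in KO libraries 1 to 3. The means were 162 ± 10.7 against 7.73 ± 1.04 (SD, n = 3), with narrow spread in both groups (log2 change -4.23, SE 0.20, limma adjusted p 1.9e-04). Slc6a13, the GABA and taurine transporter GAT2, ends 5.3 kb before Slc6a12 on the same strand. It had 335, 399 and 269.5 in the WT and 233, 219 and 265 in the KO libraries, without overlap but not past the test (log2 change -0.47, SE 0.16, limma adjusted p 0.0817). The ratio of Slc6a12 to Slc6a13 per kb was 0.438, 0.417 and 0.559 in the WT libraries and 0.0299, 0.0387 and 0.0250 in the KO libraries. The falls of Slc6a12 and of Slc36a2 went with falls of Prss34, Fcer1a and Mcpt8, which were picked out after their values were seen. In the whole mast cell and basophil list 4 of 8 markers fell and 1 rose, with overlapping sums. Its markers other than Prss34, Fcer1a and Mcpt8, summed, were higher in every KO library than in any WT library. Summed levels of neutrophil, B-lymphoid, monocyte, eosinophil, and T-lymphoid and NK markers were lower, as given above. The part of any of these in the falls was not tested.

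Because the series concerns Runx1, the RUNX core letters TGTGGT and TGCGGT were searched in the same windows on both strands. They occurred in 14.05% and 5.10% of all windows. Among the 28 transporter genes with a window, 6 held TGTGGT and 4 held TGCGGT, and Slc6a12, which has several listed starts, held each of them. The other 3 called members with a window, Slc7a11, Slc38a9 and Slc43a1, held neither. The GATA core letters AGATAA and TGATAA occurred in 9.99% and 7.94% of all windows. In transporter genes they occurred in 3 (6.98%) and 4 (9.30%) of the 43 windows. These lay in 2 genes each, with Slc7a7 holding both, Slc3a1 holding the former and Slc6a12 the latter. Slc6a12 is shown as the called member that holds both strings, at chr6:121342890-121342919, 186 to 157 bases before 1 of its starts, and at chr6:121343226-121343255, directly before another. Capitals mark the RUNX core letters.
Slc6a12, first match: tctcttgttgctTGTGGTattttgtccctt
Slc6a12, second match: ggaagcagggagcTGCGGTcccctgaggcc

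Slc6a6 (ENSMUSG00000030096; chromosome 6, 91684053 to 91759066, plus strand), the taurine transporter, was the most abundant Slc6 gene per kb and fell, with 5476, 4923 and 4604 normalised reads in the WT libraries and 3994, 4177 and 3951 in the KO libraries (log2 change -0.30, SE 0.07, limma adjusted p 0.0288). Its groups did not overlap, and the call was kept without WT library 3 and lost when any other library was left out, at adjusted p-values of up to 0.0984. Slc6a15, a branched-chain amino acid transporter of neurons, had 43.5, 35.3 and 95.0 in the WT and 13.6, 30.7 and 26.9 in the KO libraries, without overlap but not past the test (log2 change -1.20, SE 0.45, limma adjusted p 0.0995). Slc6a9, the glycine transporter GlyT1 that serves heme synthesis in red cell precursors, stayed low at 42.5, 34.3 and 19.2 in the WT and 25.1, 31.7 and 23.9 in the KO libraries (log2 change -0.18, limma adjusted p 0.72). Its exons are the ones most overlapped from the opposite strand among the tested members. Slc6a8, the creatine transporter, had 18.8, 8.07 and 21.1 in the WT and 15.7, 12.9 and 17.9 in the KO libraries (log2 change 0.05, limma adjusted p 0.943). The 11 listed Slc6 genes summed to 6103, 5597 and 5198 normalised reads in the WT libraries and 4318, 4498 and 4330.2 in the KO libraries. Slc6a6 made up most of this sum.

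**Figure D3:**
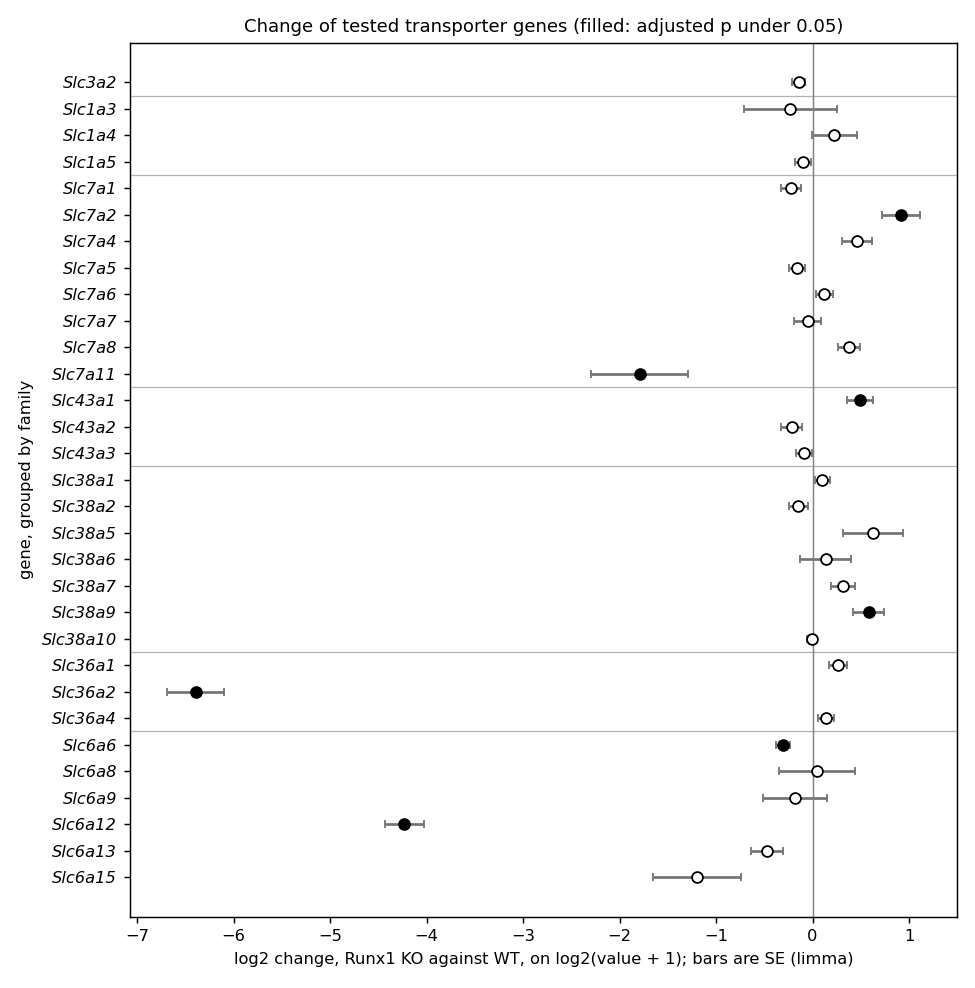
Log2 change of the 31 tested transporter genes from WT to Runx1 KO, on the log2(value + 1) scale, with SE bars from limma and families separated by lines; filled points passed an adjusted p of 0.05. Slc6a12 (-4.23) stands far from most genes, which lie near 0; the point of Slc36a2, at 0 reads in every Runx1 KO library, is placed by the pseudocount of 1 and is no estimate of size.

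The 8 listed members that were not tested reached at most 27.8 normalised reads in a library. Slc6a19, an intestinal and renal neutral amino acid transporter, had the highest of these values, with 21.8, 1.01 and 3.84 in the WT libraries and 4.18, 7.93 and 27.8 in the KO libraries. Slc6a4, the serotonin transporter, had 7.06 normalised reads at most, and was at 0 in WT library 1 and in KO libraries 2 and 3. Slc1a2, Slc6a3, Slc6a21 and Slc36a3 were also among them. Slc3a1, the heavy chain of the renal cystine transporter, never exceeded 3.84 normalised reads. The 22 symbols that are not listed, among them the neuronal and renal carriers Slc1a1, Slc6a2, Slc7a9, Slc7a10 and Slc38a3, were not analysed here.

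Compared per kilobase of exon, the transporter genes spanned a wide range, and the order of the abundant ones was alike in both groups. In the WT libraries Slc3a2 and Slc7a5 were followed by Slc43a3 at 1084 ± 95.9 normalised reads per kb, Slc38a10 at 947 ± 11.2, Slc1a5 at 862 ± 72.7 and Slc38a2 at 753 ± 102 (SD, n = 3). Slc3a2 and Slc7a5 overlapped in these libraries, as did Slc1a5 and Slc38a2, while Slc43a3 lay apart from both of its neighbours in the order. The first 6 places were the same in the KO libraries. Slc38a5 moved from place 10 to place 7 by its mean, with a wide spread in the KO libraries (389 to 886 per kb). Slc6a12 moved from place 20 of 31 to place 30 and Slc36a2 from place 23 to place 31. The 39 listed genes summed to 10119.9, 10428 and 10279.9 per kb in the WT libraries and to 9624, 10212 and 10442 in the KO libraries, with overlapping groups. The 5 most abundant genes made up 54.3% of this sum in the WT libraries and 51.4% in the KO libraries.

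**Figure D4:**
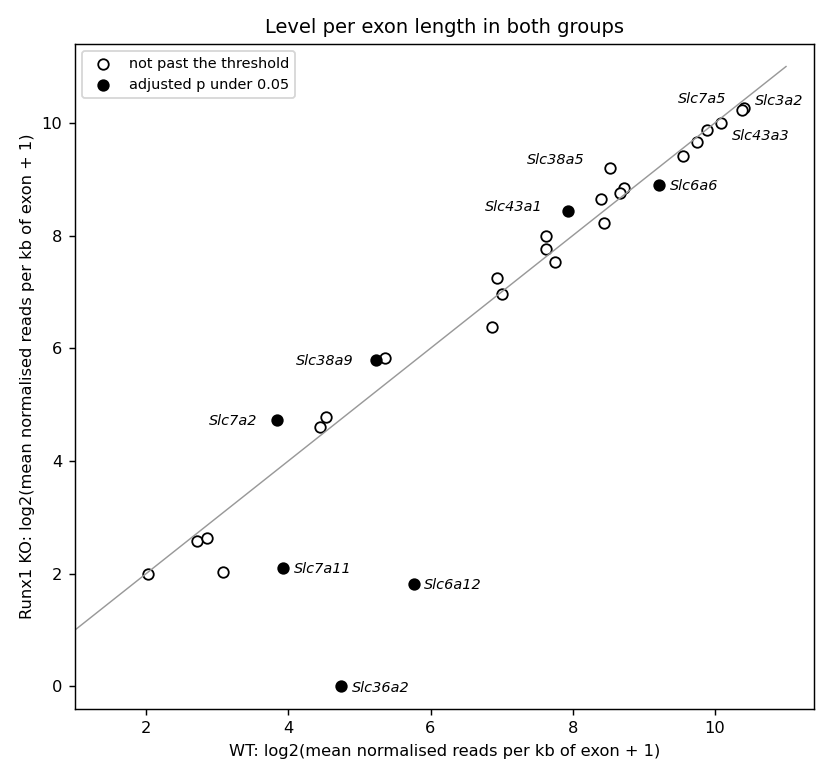
Mean level of each tested transporter gene per kilobase of exon, as log2(mean normalised reads per kb + 1), in WT (horizontal axis) and Runx1 KO (vertical axis) libraries; the line marks equal levels and filled points passed an adjusted p of 0.05. The abundant genes lie along the line, and Slc36a2, Slc6a12 and Slc7a11 lie furthest below it.

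Further amino acid carriers, from other families or, for Slc6a20a and Slc6a20b, with symbols that end in a letter, came from a list of 27 genes, of which 24 were listed and 20 tested. Of these 3 rose and 4 fell, 35.0% called against 21.9% of all tested genes (10.6% higher and 11.3% lower), with a median log2 change of -0.08 against -0.0042 over all tested genes; without a filter on low values 4 were called. The risers were small: Slc25a15, the mitochondrial ornithine carrier, changed by 0.28, Slc25a22, a mitochondrial glutamate carrier, by 0.27 and Slc16a10, the aromatic amino acid transporter TAT1, by 0.23 on the log2 scale (limma adjusted p 0.0411, 0.0447 and 0.0441). Slc32a1, the vesicular carrier of GABA and glycine, fell from 37.6, 22.2 and 21.1 normalised reads in the WT libraries to 4.18, 0 and 0.995 in the KO libraries (log2 change -3.63, SE 0.62, limma adjusted p 0.00907). Slc6a20a, a proline transporter of the Slc6 family whose symbol ends in a letter, had 26.7, 32.3 and 23.98 in the WT and 15.7, 2.97 and 5.97 in the KO libraries (log2 change -1.88, SE 0.52, limma adjusted p 0.0421). Pqlc2, which exports cationic amino acids from the lysosome, had 172, 162 and 167 and 109, 105 and 110.4 (log2 change -0.62, SE 0.12, limma adjusted p 0.0144). The remaining call, Slc15a4, named after its values were seen, is the lysosomal histidine and peptide carrier and fell by 0.54 on the log2 scale (limma adjusted p 0.00663). Slc32a1 and Slc15a4 passed whichever library was left out. Pqlc2 lost its call without KO library 2, and each of the other 4 lost it in 5 of 6 such fits, with adjusted p-values of up to 0.167. Between 2 (without KO library 2) and 6 (without KO library 1) genes of the list were called in these fits, with 3 without WT library 1, WT library 3 or KO library 3 and 4 without WT library 2.

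Enzymes that make or convert amino acids gave 4 calls among 29 tested genes of 30, 1 higher and 3 lower, or 13.8% against 21.9% of all tested genes, with a median log2 change of -0.15. Beside Asns and Pycr1, Bcat1, a branched-chain aminotransferase, fell from 98.9, 77.7 and 116 to 49.2, 33.7 and 19.9 normalised reads (log2 change -1.55, SE 0.34, limma adjusted p 0.0206). Glul, the glutamine synthetase gene, rose from 5994, 5336 and 5256 to 6976, 6421 and 6891 (log2 change 0.29, SE 0.07, limma adjusted p 0.0277). Of 18 stress-response genes 2 rose and 3 fell (27.8% called, against the same 21.9%; median -0.11), the falls being Atf4, Chac1 and Nupr1. The risers were the kinase genes Eif2ak2 (log2 change 0.40, SE 0.10, limma adjusted p 0.0323), which senses viral RNA, and Eif2ak4 (log2 change 0.24, SE 0.07, limma adjusted p 0.0485), which senses uncharged tRNA. Of the 20 cytosolic aminoacyl-tRNA synthetase genes 1 was called, Yars, which was lower (log2 change -0.29, SE 0.08, limma adjusted p 0.0406), and the median was -0.11. That is 5%, again against 21.9%. With a library left out, Bcat1 lost its call in 3 of 6 fits, Glul and Yars in 5, Eif2ak2 in 4 and Eif2ak4 in all 6. Without KO library 2 the calls fell to 1 among the enzymes, 2 among the stress-response genes and 0 among the synthetases; without WT library 3 they were 2, 3 and 0, without KO library 3 they were 3, 2 and 0, and without WT library 1 they were 5, 4 and 2.

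Genes of amino acid sensing at mTORC1, the pathway on which Slc38a9 acts, gave 8 calls among 35 tested genes, 4 in each direction, with a median log2 change of 0.05. Their share of 22.9% is near the 21.9% of all tested genes. Castor2, a relative of the cytosolic arginine sensor, had 267, 246 and 309.8 normalised reads in the WT libraries and 769, 632 and 697 in the KO libraries (log2 change 1.35, SE 0.12, limma adjusted p 0.00152), well apart. Sesn1, a sestrin that restrains mTORC1, had 1160.4, 1035 and 1211 in the WT and 2121, 1880.0 and 1954 in the KO libraries (log2 change 0.81, SE 0.08, limma adjusted p 0.00225), also well apart. Tsc1, of the complex that inhibits the mTORC1 activator Rheb, rose by 0.37 on the log2 scale (limma adjusted p 0.0165), and Flcn, named after its values were seen, by 0.29 (0.0179). On the falling side were Lamtor4 (log2 change -0.53, SE 0.10, limma adjusted p 0.012) and Lamtor1 (log2 change -0.35, SE 0.08, limma adjusted p 0.0202), parts of the Ragulator anchor on the lysosome, and Mlst8 (log2 change -0.36, SE 0.07, limma adjusted p 0.0125), a subunit of mTORC1. The last was Sec13 (log2 change -0.29, SE 0.06, limma adjusted p 0.0138), named after its values were seen, which also serves in vesicle coats. Castor2 and Sesn1 passed whichever library was left out, Lamtor4 and Mlst8 lost their calls without KO library 2, and the other 4 lost theirs in 2 to 4 of the 6 fits. Without KO library 2 the list held 2 calls and without KO library 3 it held 4. Mtor itself had 2391, 2716 and 2509 in the WT and 2669.5, 2971 and 2820.5 in the KO libraries (log2 change 0.15, limma adjusted p 0.166).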

How the data were processed

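RNA was measured in 6 libraries of c-Kit-positive bone marrow cells, 3 labelled WT and 3 labelled Runx1 KO. Per the submitters' processing notes, HISAT2 and HTSeq 0.9.1 were used with the builds mm10 and GRCm38; the normalization step is not given in the sources used here. The authors deposited a signal per gene and library, which the values show to be read counts divided by a size factor: the smallest positive value divided 100% of values in each file into whole numbers (tolerance 0.001), and these numbers are the recovered reads. In 4 files this step lies so near 1 that the general test for such steps does not accept it, although the values are not rounded, and count tests therefore serve as alternatives. Totals of recovered reads ran from 23297526 to 26793380 per library. Within groups, libraries differed beyond counting noise (chi-square per degree of freedom from 7.09 to 33.6).

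Symbols came from a table of Ensembl identifiers (20077 matched, 20 did not), and positions and exon lengths from GENCODE M21 on GRCm38. limma 3.58.1 (lmFit, eBayes with trend, two-sided) was fitted to log2(value + 1) with the group as its term, for the 15410 genes that passed filterByExpr of edgeR 4.0.16 by group (minimum count 10, minimum total 15), with Benjamini-Hochberg adjustment over all of them. Fold changes on this scale are understated for weakly expressed genes. The threshold was 0.05. The fits were tested on simulated data. With 3 libraries against 3 an exact permutation test cannot go below 0.1 and was not run.

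Values of single untested members are given for some of the 8. The members and lists were chosen with earlier results of these data known. The text names the members that passed, 18 members fixed by role, the other members in brief, and from each list up to 3 called genes per direction with the largest change and no overlap. Alternatives were edgeR and DESeq2 1.42.0 on recovered reads, the replicate number as a block, pseudocounts of 0.5 and 5, the filter replaced by none or by an average CPM of 1 or more, library totals or TMM, and leaving out each library.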

Additional observations from a re-analysis of the deposited data

How the results depend on the processing

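With all 6 libraries kept, 7 to 8 transporter genes were called in each of the 10 alternatives. Fits that each left out a library gave 2 to 6 called transporter genes, 0 to 3 higher and 2 to 5 lower, and 2 to 6 other carriers, 1 to 5 synthesis enzymes, 2 to 5 stress-response genes, 2 to 9 mTORC1 sensing genes, 0 to 2 tRNA synthetases. DESeq2 on recovered reads gave 8 calls among synthesis enzymes and 2 among tRNA synthetases, against 4 and 1. Without a filter 4 other carriers were called, against 7, and with library totals 0 tRNA synthetases in limma, where library totals put the median log2 change of all tested genes at 0.0777. The log2 change of Slc7a7 turned sign to 0.033 with library totals. Over the fits without 1 library each it ran from -0.12 to 0.07, positive without WT library 1 (0.039) or KO library 2 (0.074), and that of Slc6a9 ran from -0.50 to 0.053, positive without WT library 1; neither gene passed in any of these fits. Of 210 values of single genes under those alternatives, 201 gave the call and sign reported, 2 lost a call, 6 gained one and 1 changed sign; of 126 with a library left out, the counts were 100, 22, 1 and 3. The cause was not tested.

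WT and KO libraries of the same number, after subtraction of group means, correlated at 0.29, 0.13 and -0.01 for numbers 1, 2 and 3, so the numbers were not taken to pair the libraries, and KO library 3 correlated best with WT library 2 (0.23). With the replicate block, limma and edgeR each gave 8 called transporter genes (3 higher, 5 lower) and 2 called tRNA synthetases, where 24.9% and 23.9% of all tested genes were called. Slc7a1 and Slc7a8 gained a call and Slc38a9 lost its own. Slc38a9 then had an adjusted p of 0.0564 in limma and 0.0558 in edgeR, Slc7a1 of 0.0326 and 0.0353, and Slc7a8 of 0.0215 and 0.0234. Genes of few reads are limited by depth: the floor of 3 reads is 2.88 to 3.14 normalised reads, and differences among the 8 untested members were not detectable at this depth.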

Other observations

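Slc15a2, a peptide and histidine transporter of another solute carrier family, differed between libraries more than most carriers. It had 13.8, 118 and 232 normalised reads in WT libraries 1 to 3 and 751, 264 and 337 in KO libraries 1 to 3, and did not pass (log2 change 2.45, SE 0.97, limma adjusted p 0.111). Its relative Slc15a3, a lysosomal carrier, had 1056, 462 and 476 in the WT and 539.8, 333 and 299 in the KO libraries (log2 change -0.70, limma adjusted p 0.2), with WT library 1 the highest. Both were named after their values were seen.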
